A study of Mus musculus with 8 samples.

Results

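The genes of the interleukin 12 (IL-12) cytokine family, Il12a, Il12b, Il23a, Il27 and Ebi3, were described by the open chromatin found at them in mouse macrophages. The assay was ATAC-seq, which reads out where a transposase can reach the DNA. The macrophages were grown for 7 days from mouse bone marrow, either wild type (WT) or with a knockout (KO) of Nfat5, in medium with 25% supernatant of a fibroblast line that secretes M-CSF. They were left untreated or given 0.3 ng/ml E. coli lipopolysaccharide (LPS) for 2 h, which made 4 groups of 2 libraries. The sources used here give neither the knockout allele, nor the cells in which it acts, nor the age of the mice. Peaks of the 8 deposited lists were merged into regions where they shared at least 1 base, and a region belonged to a family gene when that gene's body was the nearest protein-coding one within 100 kb (build GRCm38). The rule found 32 of 87260 regions: 15 at Il12b, 11 at Il12a, 4 at Il27, 1 at Il23a and 1 at Ebi3.

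The family's cytokines are pairs of subunits. Il12a and Il12b encode the subunits of IL-12, which drives T cells and natural killer cells towards interferon gamma. The Il12b subunit also joins that of Il23a to form IL-23, a cytokine that sustains IL-17-producing T cells. Il27 and Ebi3 encode the subunits of IL-27, and Ebi3 can also pair with Il12a to form IL-35. Macrophages and dendritic cells make these cytokines when Toll-like receptors sense microbial products, and Il12b is a known example of a gene that is switched on through NF-kB with chromatin remodelling.

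RefSeq promoter windows (GRCm38.p6, 250 bases before to 50 after a start) were at hand for 3 of the 5 genes, with 2 windows for Il12a and 1 each for Il12b and Ebi3. The bases before the start are shown for Ebi3, whose window every library's peak covered wholly or in large part, and for Il12b, whose window held no peak in any library although the gene gained regions farther away. Capitals mark matches to the searched motifs.
Ebi3: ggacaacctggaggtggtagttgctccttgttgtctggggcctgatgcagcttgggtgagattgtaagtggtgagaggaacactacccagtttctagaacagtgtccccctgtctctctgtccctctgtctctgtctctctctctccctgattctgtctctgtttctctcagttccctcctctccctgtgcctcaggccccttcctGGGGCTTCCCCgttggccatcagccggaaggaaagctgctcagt
Il12b: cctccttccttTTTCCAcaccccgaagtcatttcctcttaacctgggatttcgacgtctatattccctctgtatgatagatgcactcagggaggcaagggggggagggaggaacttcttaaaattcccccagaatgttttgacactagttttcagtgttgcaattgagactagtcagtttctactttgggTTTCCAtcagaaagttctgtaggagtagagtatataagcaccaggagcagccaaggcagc
The Ebi3 stretch lies at chr17:55952373-55952622 and the Il12b stretch at chr11:44399813-44400062, both on the plus strand. In Ebi3 the capitals are 2 overlapping matches to the NF-kB letters (GGG, then any 5 bases, then CC), 44 to 34 bases before the start. Another 2 matches lie in the 50 bases after it. In Il12b the capitals are 2 matches, on the minus strand, to the NFAT5 core TGGAAA. Of 32851 promoter windows in the table, 50.8% held the NF-kB letters and 21.4% the NFAT5 core on either strand, so both are common. The second Il12a window (68691174 to 68691473) held the NF-kB letters at 3 places, of which 2 overlapped. TGANTCA (AP-1), GAAA, any 2 bases and GAAA (IRF), TTGCNNAA (C/EBP) and GGAAGT (PU.1) had no match in these 4 windows. They occur in 7.81%, 3.44%, 10.8% and 23.8% of all windows. A match is a run of letters and not a measured binding site.

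Across all lists, libraries held 54027 to 60117 peaks. The LPS libraries covered 26.2 to 28.0 Mb and the untreated ones 29.6 to 31.2 Mb. The lists give no counts, so depth is unknown, and a missing peak means that none was called, not that the site was closed. In bulk chromatin, more cells with an open site and a site more open in each cell cannot be told apart. Of 8 macrophage marker genes, 5 had a region over a gene end called in all 8 libraries, against 2 of 6 dendritic cell, 1 of 5 T cell, 0 of 5 B cell, 0 of 5 neutrophil and 0 of 4 fibroblast markers. In both genotypes, 1 of 31 dendritic cell marker regions (at Flt3) and 1 of 13 fibroblast marker regions (at Dcn) were gained with LPS. Of 76 macrophage marker regions, 3 (at Itgam and Fcgr1) were lost in both genotypes. Among all regions, 1.10% were gained and 0.928% lost in both genotypes. The part of these marker regions in the results below was not tested. Nothing in the labels states that the libraries came from separate cultures, so p-values measure the spread between these libraries.

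With LPS, each library called more of the family's regions. Untreated WT libraries called 16 and 16 of the 32, and untreated KO libraries 15 and 20. WT libraries with LPS called 21 and 22, and KO libraries with LPS 21 and 21. Every LPS library was therefore above every untreated one, while the lists as a whole covered less. All 6 family regions called in a single library were called in an LPS library, so they joined the 32 through that arm. So did 3 regions called in every LPS library and no untreated one, and the region 0.867 kb from Il27. Without the 6 single-library regions, the counts of LPS and untreated libraries overlap. The family's peaks spanned 8967 to 10388 bases with LPS and 6634 to 8410 without. These totals include all regions that LPS libraries alone called, so they do not show that the remaining regions differ. The median difference in peak width, LPS minus untreated, was 46.25 bases over the 32 regions and -45.25 bases over all 87260. Width differences were above 0 for 20 of the 32 and for 34.5% of all regions. The 20 include the 6 regions called in a single LPS library and the other regions named above that no untreated library called. Differences of these regions could only be above 0, and they enter the family's median too.

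Regions called in every library of one arm and in none of the other were counted as different. In WT, 5 of the 32 regions were gained with LPS (both LPS libraries, neither untreated one), against 3.96% of all regions, and 2 were lost, against 5.06%. In KO, 4 were gained, against 2.56% of all regions, and 0 were lost, against 4.07%. Over both genotypes 3 regions were gained, against 1.10% of all regions, and 0 were lost, against 0.928%. The family's shares were 15.6%, 12.5% and 9.38% for the gains. Of the 3 regions gained in both genotypes, 2 lay at Il12b and 1 at Il12a, the genes that hold most of the family's regions (15 and 11 of the 32). An arm of 2 libraries against 2 has a smallest exact p of 0.333, so these counts carry no p-value. When a library had to cover at least 50% of a region, 2 regions were gained in both genotypes, the one 17.5 kb from Il12b and one 3.98 kb from Il27. Leaving out WT LPS library 1 or 2 raised the WT gains to 8, as 1 library then decides the arm. Within 25 kb of a gene the WT gains were 3 and the KO gains 2.

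**Figure D1:**
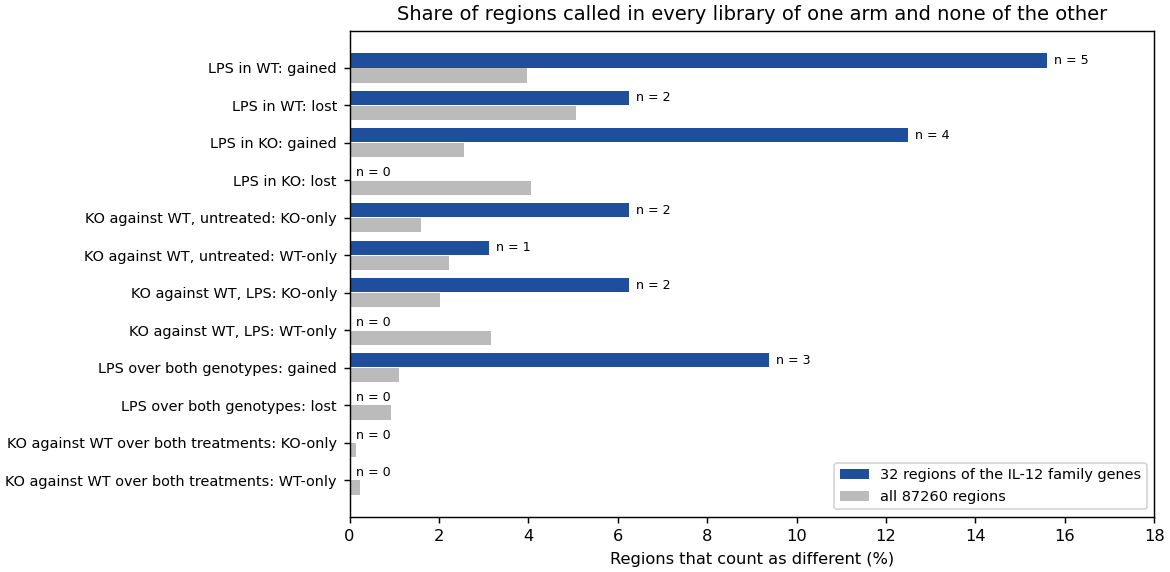
Share (%) of the 32 regions of the IL-12 family genes (blue, with the number of regions) and of all 87260 regions (grey) that count as different in each comparison. The longest blue bars are the LPS gains, at 15.6% in WT, 12.5% in KO and 9.38% over both genotypes, where all regions stand at 3.96%, 2.56% and 1.10%.

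Il12b (chromosome 11, 44400063 to 44414677, plus strand), the subunit shared by IL-12 and IL-23, had 15 regions, and 94.2% of the 16459 genes with a region had fewer. Of these, 4 were called in all 8 libraries and form the part of the locus open in every group. They lay 21.5 kb upstream (44377871 to 44378520), 9.30 kb upstream (44389871 to 44390759), 0.651 kb upstream (44398486 to 44399412) and over the far end of the gene (44414570 to 44415455). At the region 9.30 kb upstream, WT peaks were 606 and 615 bases wide untreated and 709 and 742 with LPS. KO peaks were 514 and 780 bases wide untreated and 631 and 648 with LPS. The WT libraries separated by treatment there and the KO libraries overlapped. The region over the far end had WT widths of 636 and 765 bases untreated and 616 and 653 with LPS, and KO widths of 864 and 684 untreated and 660 and 537 with LPS. There the KO libraries separated by treatment, narrower with LPS, and the WT libraries overlapped. Peaks were narrower with LPS in all 4 replicate pairs. An exact test of 2 libraries against 2 has a smallest p of 0.333. Whether the genotypes differ in their LPS response at the 9.30 kb and far-end regions was not tested. The region nearest the start had widths of 420 to 764 bases with LPS and 484 to 597 without, which overlap. Its upper edge was 401 bases from the promoter window shown above.

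Both regions gained in WT and KO lay upstream, beyond the 9.30 kb region. At the farther one, 26.6 kb from the gene (44372400 to 44373431), no untreated library had a peak. Peaks were 416 and 348 bases wide in WT with LPS and 749 and 822 in KO with LPS. The KO peaks were wider than both WT peaks and reached beyond them on the upstream side, starting at 44372400 and 44372610, where both WT peaks started at 44372789. On the gene side KO LPS library 2 also reached farther, to 44373431. KO LPS library 1 ended at 44373148, between the WT ends at 44373204 and 44373136. Each WT peak covered under 50% of the merged region. At the nearer one, 17.5 kb from the gene (44382147 to 44382549), peaks were 342 and 284 bases wide in WT with LPS and 371 and 309 in KO with LPS, with none in the untreated libraries. The genotypes overlapped at this region.

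The mean difference with LPS was 583.8 bases at the farther and 326.5 bases at the nearer region. Peaks in all LPS libraries and in no untreated one fix the width test at its smallest p, so none is given for the 3 regions gained in both genotypes. No region of the whole table passed adjustment over 87260 regions by the two-sided exact permutation test over 8 libraries. Of the 32 family regions, 7 reached the smallest unadjusted exact p of 0.0286, with 6 wider with LPS (those 3 among them), against 3.01% of all regions, and 1 narrower, against 7.59% (10.6% in either direction). When libraries of one genotype with the same replicate number were taken as pairs, 7 regions were wider and 2 narrower with LPS in all 4 pairs, the narrower ones being the far end of Il12b and one 79.8 kb from Il12a. The 7 include the 3 regions gained in both genotypes, whose direction was fixed. Pairs were counted in the family alone, so no share of all regions stands beside these counts.

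Another upstream region, 68.2 kb from Il12b (44331590 to 44331905), counted as gained in KO and not in WT. WT peaks there were 243 bases in untreated library 1, absent in untreated library 2, and 279 and 300 bases with LPS. In KO there was no untreated peak, and LPS peaks were 278 and 299 bases. All LPS libraries were again above all untreated ones (exact permutation p = 0.0286, adjusted p = 0.270, n = 4 per arm). The genotypes had nearly the same widths with LPS, and their different calls came from 1 untreated WT library.

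Some Il12b regions differed by genotype. A region 4.14 kb upstream (44395598 to 44395927) had peaks of 278 and 330 bases in untreated WT and none in the other 6 libraries, so it was lost with LPS in WT and WT-only among untreated libraries. The region 44.9 kb upstream (44354927 to 44355200) had no WT peak. Untreated KO libraries had 238 and 177 bases there, and KO LPS library 2 had 186. Downstream, 10996 bases past the gene (44425673 to 44426732), KO peaks were 1060 and 375 bases untreated and 410 and 413 with LPS, and the sole WT peak, in untreated library 2, was 226 bases. Every KO library was wider than every WT library there, by 508 bases on average (exact permutation p = 0.0286, adjusted p = 0.983 over 87260 regions, n = 4 per genotype). Without untreated KO library 1, which held the 1060-base peak, the difference was 342.8 bases (exact permutation p = 0.0571), and with 50% of the region covered it was 265 bases (exact permutation p = 1.0). The same held 76.4 kb upstream (44323447 to 44323681), with KO peaks of 191 to 206 bases and WT peaks of 189 and 185 bases in library 2 of each treatment and none in library 1 (exact permutation p = 0.0286, adjusted p = 0.983). There the exact permutation p was 0.171 without any 1 of the KO libraries. These 2 of the 32 regions were wider in KO without overlap, against 0.978% of all regions, and 0 were narrower, against 1.93%. At an unadjusted exact p under 0.05 the count was 2 of 32, against 2.91% of all regions. Neither passed adjustment. With widths taken as a share of each library's covered bases, the count of wider regions was 1.

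By the call rule, 2 family regions were KO-only and 1 WT-only among untreated libraries, against 1.60% and 2.23% of all regions. With LPS 2 were KO-only and 0 WT-only, against 2.03% and 3.17%. Over both treatments 0 were KO-only and 0 WT-only, against 0.147% and 0.231%. At Il12b the KO-only regions were those 44.9 kb upstream (untreated) and 10996 bases downstream (LPS), and the remaining KO-only ones were at Il12a. A single library set several of these counts: without WT untreated library 2 there were 4 KO-only and 2 WT-only regions among untreated libraries, and without WT LPS library 1 there were 4 WT-only regions with LPS. The other 5 Il12b regions were 1 inside the gene (44405272 to 44405613), called in untreated WT library 1 and untreated KO library 2, the region 76.4 kb upstream, and 3 regions of a single library between 30.5 and 80.8 kb upstream.

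Il12a (chromosome 3, 68690644 to 68698550, plus strand), the other subunit of IL-12, had 11 regions, of which 3 were called in all 8 libraries. These constant regions lay 27.9 kb and 13.1 kb upstream and 10.6 kb downstream. At the last of these, 10.6 kb downstream (68709115 to 68709979), WT peaks were 490 and 808 bases untreated and 763 and 760 with LPS. KO peaks were 488 and 730 bases untreated and 831 and 728 with LPS. The treatments overlapped at this region, where both untreated libraries numbered 1 were low.

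The region gained in both genotypes lay inside Il12a (68693084 to 68694038), with its centre 2.92 kb past the gene start. No untreated library had a peak. With LPS, peaks were 954 and 507 bases wide in WT and 625 and 431 in KO, so the genotypes overlapped. In all 4 libraries the peaks shared the stretch from 68693532 to 68693956, and they differed in how far they reached towards the gene start. The mean difference with LPS was 629.2 bases. Nearer the gene start, 1 library had a peak: in WT LPS library 2 it was 167 bases wide (68691338 to 68691504), and 136 of them lay in the second promoter window. No library had a peak over the gene start itself. The first promoter window held no peak, with the nearest region 645 bases away.

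Downstream of Il12a, WT and KO gave different calls at 3 regions. At 45.8 kb (68744321 to 68744681) peaks of 346 and 361 bases were called in WT with LPS and none in untreated WT. In KO, untreated library 2 had 302 bases and the LPS libraries 331 and 284. The region thus counted as gained in WT alone, while KO with LPS had peaks of similar width. At 79.8 kb (68778390 to 68778914) the change ran the other way, with 466 and 408 bases in untreated WT and no peak in WT with LPS. KO libraries kept a peak there, of 512 and 471 bases untreated and 381 and 389 with LPS. The widths of all untreated libraries were above those of all LPS libraries, with a mean difference, LPS minus untreated, of -271.8 bases (exact permutation p = 0.0286, adjusted p = 0.270, n = 4 per arm). This was the single family region that was narrower with LPS without overlap. With widths as a share of covered bases 0 regions were narrower without overlap.

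A region 15004 bases downstream of Il12a (68713554 to 68713857) had peaks of 304 and 179 bases in untreated KO, 176 bases in WT LPS library 1 and 199 bases in KO LPS library 1. The remaining regions were narrow and scattered. One 9.78 kb downstream had peaks of 167 to 204 bases in 4 libraries, one 18.9 kb downstream had peaks of 159 to 299 bases in 4 libraries, and one 73.2 kb downstream had a peak of 220 bases in WT LPS library 2 alone.

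**Figure D2:**
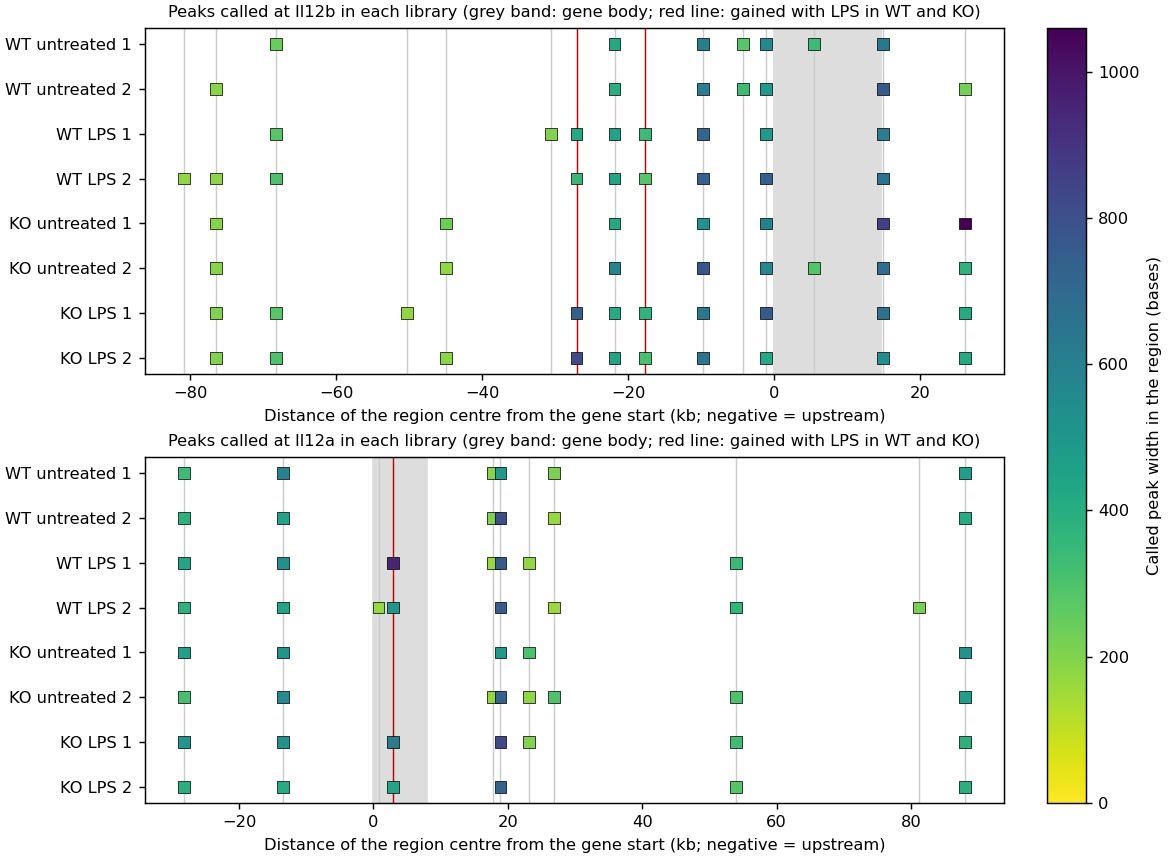
Peaks called at Il12b (top) and Il12a (bottom) in each of the 8 libraries. The x axis is the distance of the region centre from the gene start in kb, each square is a region called in that library, its colour is the called peak width in bases, the grey band is the gene body and red lines mark the 3 regions gained with LPS in WT and KO. Squares on the red lines appear in the LPS rows and in no untreated row, and columns with a square in every row are the 4 Il12b and 3 Il12a regions called in all 8 libraries.

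Il23a (chromosome 10, 128296140 to 128298084), which encodes the subunit particular to IL-23, lies between Stat2, 3.29 kb away, and Pan2, 5.25 kb away, and had 1 region. The tables used give no strand for it. The region (128298061 to 128299015) meets the higher-coordinate end of the gene and was called in all 8 libraries. The peak of untreated KO library 2 alone reached into the gene, and the other 7 began just outside it. WT peaks were 407 and 474 bases untreated and 884 and 790 with LPS. In KO they were 545 and 590 bases untreated and 444 and 443 with LPS. Peaks were thus wider with LPS in both WT libraries and narrower in both KO libraries. The mean difference was 396.5 bases in WT and -124 bases in KO. Most of the added width in WT lay on the side away from the gene: peaks ended at 128298635 and 128298677 untreated and at 128299015 and 128298960 with LPS.

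Pooled over genotypes the Il23a widths overlapped (SD, n = 4: LPS 640.2 ± 230 bases, untreated 504 ± 80.4). The exact permutation p was 0.343 and its adjusted value 0.835 over all regions. The difference between genotypes in the LPS response was not tested. The exact test of 2 paired differences against 2 has a smallest p of 0.333. Among the 36009 regions called in all 8 libraries, 2.25% were wider with LPS in WT and narrower in KO without overlap in either genotype, and 1.55% showed the reverse. Il23a was 1 of the 9 family regions called in all 8 libraries. This pattern was looked for after the widths had been seen. The direction in each genotype was kept in all alternatives, with 349.5 to 443.5 bases in WT and -146.5 to -101.5 bases in KO when 1 library was left out.

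Il27 (chromosome 7, 126589009 to 126595035), the subunit particular to IL-27, had 4 regions, all at or beyond its higher-coordinate end, and none was called in all 8 libraries. The tables used give no strand for it, and the gene overlaps Apobr. At the region 3.98 kb outside the gene (126599013 to 126599637), WT peaks were absent and 209 bases untreated and 553 and 625 with LPS. KO peaks were absent and 232 bases untreated and 545 and 444 with LPS. All LPS libraries were above all untreated ones, by 431.5 bases on average (exact permutation p = 0.0286, adjusted p = 0.270, n = 4 per arm). The untreated peaks were both in libraries numbered 2, and they lay at different places within the region, from 126599136 to 126599344 in WT and from 126599401 to 126599632 in KO.

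Nearer to Il27, 0.867 kb from its end (126595902 to 126596247), peaks of 314 and 265 bases were called in WT with LPS, and KO LPS library 2 had 240 bases. No untreated library had a peak there, so the region counted as gained in WT and missed the rule in KO by 1 library. The gene end itself (126594931 to 126595385) carried a peak in WT LPS library 1 alone, of 455 bases. The outermost region, 11.8 kb away (126606790 to 126607338), was called in 7 libraries, with widths of 166 to 527 bases with LPS and of 0 to 520 without, which overlap.

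Ebi3 (chromosome 17, 55952623 to 55957022, plus strand), the partner of Il27, has Yju2 as a close neighbour, and its gene body overlaps that of Zfp119b. Its 1 region (55952097 to 55952908) covers the gene start and holds the whole promoter window once the peaks of all libraries are merged, and it lies as near to Zfp119b as to Ebi3. Every library called it. WT peaks were 526 and 547 bases untreated and 798 and 764 with LPS. KO peaks were 512 and 532 bases untreated and 735 and 673 with LPS. LPS peaks were wider in both genotypes, with little spread, at 742.5 ± 53.0 bases against 529.2 ± 14.5 (SD, n = 4, exact permutation p = 0.0286, adjusted p = 0.270). The added width lay upstream. Untreated peaks started between 55952357 and 55952392, and LPS peaks between 55952097 and 55952194. On the gene side, untreated peaks ended between 55952903 and 55952908 and LPS peaks between 55952866 and 55952894, slightly short of them. The printed Ebi3 stretch starts at 55952373, so the added width with LPS lay mostly before it, and untreated peaks began within 20 bases of its first base.

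**Figure D3:**
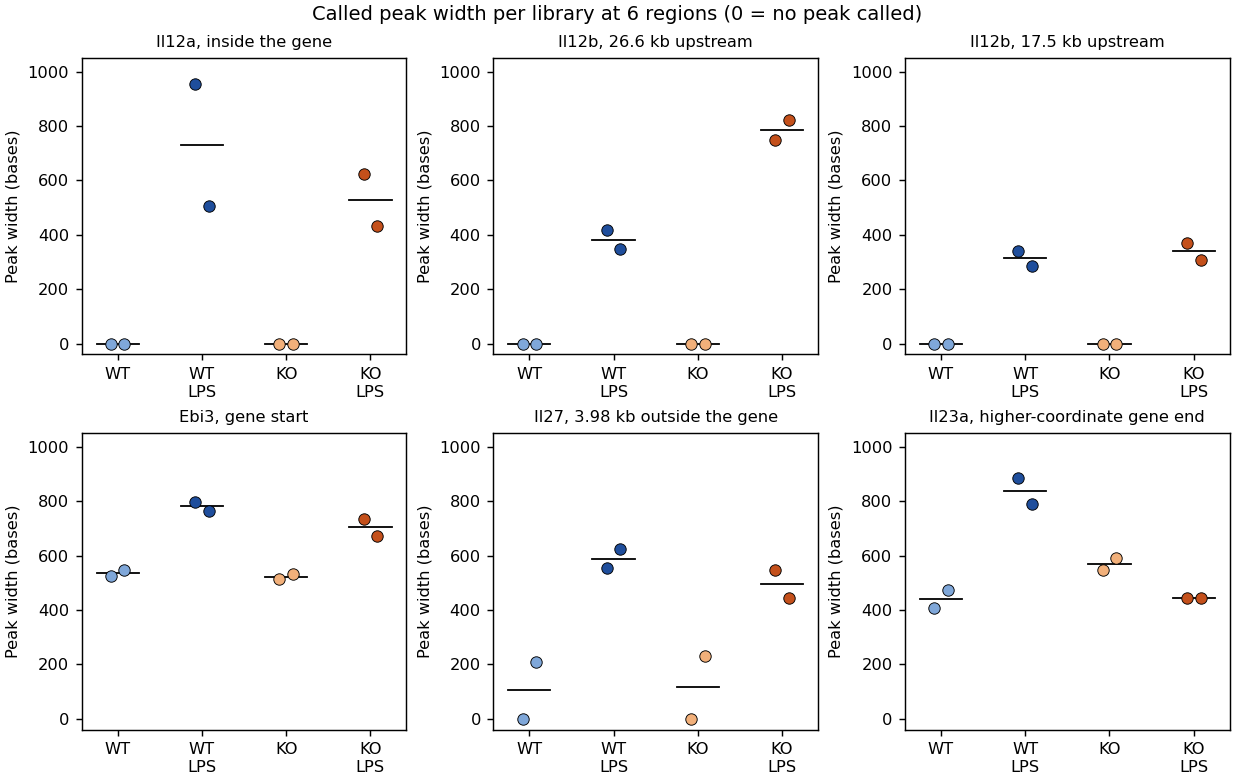
Called peak width (bases, y axis, 0 where no peak was called) at 6 regions in the 4 groups. Points are libraries and bars are the means of 2. The Il12a region and both Il12b regions stand at 0 in every untreated library. At Ebi3 the LPS libraries reach 673 to 798 bases against 512 to 547, and at Il23a WT with LPS is high (884 and 790) while KO with LPS is low (444 and 443).

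Summed over all regions of a gene, peak widths gave 5 of 5 family genes a positive difference with LPS, where 24.2% of all 16459 genes had one. Only at Il23a did the genotypes go opposite ways, by 396.5 bases in WT and -124 in KO. The Ebi3 sum is that of 1 region, which lies as near to Zfp119b. At Il12a the sum differed by 600 bases, and its region gained in both genotypes, without an untreated peak, by 629.2. At Il12b the sum differed by 663.5 bases, and its 2 such regions by 583.8 and 326.5. These regions joined the family through LPS libraries alone, so the positive sums at Il12a and Il12b do not describe the rest of either locus. The median difference was 600.0 bases in the family and -116.2 bases over all genes. Per library, the Il27 sum was 520 and 209 bases in untreated WT, 491 and 618 in untreated KO, 1849 and 1056 in WT given LPS and 938 and 958 in KO given LPS. Its means were 1200 ± 436 bases with LPS and 459.5 ± 176 untreated (SD, n = 4). At Il27 and Ebi3 the arms did not overlap (exact permutation p = 0.0286, adjusted p = 0.182 over 16459 genes for each, n = 4). Among all genes, 1.73% were higher with LPS without overlap and 13.9% lower, and 15.7% had an unadjusted exact p under 0.05. The Il12b sum was 4066 ± 505 bases in LPS libraries and 3402 ± 434 in untreated ones (exact permutation p = 0.143, adjusted p = 0.381, n = 4), and the Il12a sum 3092 ± 360 and 2492 ± 358 (exact permutation p = 0.0857, adjusted p = 0.303). None of the 5 genes passed the adjustment. Within replicate pairs the Il12b sum was higher with LPS in 4 of 4 (by 411, 858, 768 and 617 bases), as were those of Il27 and Ebi3, and the paired exact permutation p of 0.125 is the smallest that 4 pairs allow. The Il12b sums include the regions 26.6 kb and 17.5 kb upstream, which had no untreated peak. Their pairs differed by 416, 348, 749 and 822 bases and by 342, 284, 371 and 309. The 4 of 4 at Il12b thus does not describe the rest of the locus.

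The sum at Il12b depended on distance. Over the regions within 25 kb of the gene, LPS minus untreated was -234.2 bases (exact permutation p = 0.257, n = 4), with -101.5 bases in WT and -367 in KO. That window leaves out the 68.2 kb and 26.6 kb regions. The Il12a difference was 833.5 bases in WT and 366.5 in KO. In KO it was -17.0 bases without untreated library 1 and -10.5 without LPS library 1. Between genotypes, the sum at Il12b was 4114 ± 441 bases in KO and 3354 ± 398 in WT (exact permutation p = 0.0571, adjusted p = 0.679, n = 4), and at the other 4 genes the exact permutation p was 0.371 to 0.886. None of the 5 genes had KO and WT sums without overlap, against 0.911% of all genes higher and 3.94% lower in KO, or 4.85% at an unadjusted exact p under 0.05.

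**Figure D4:**
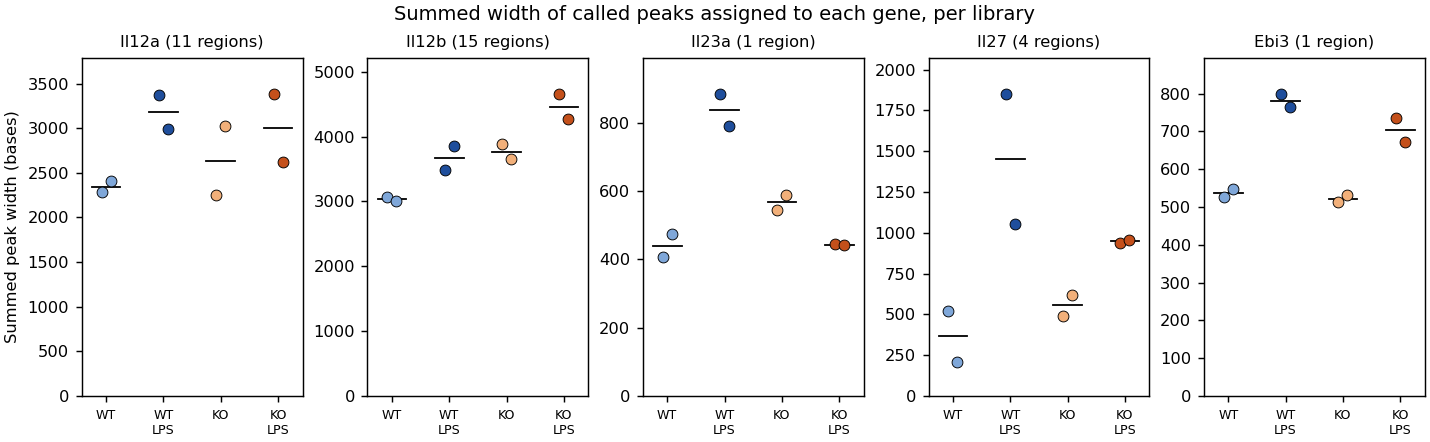
Summed width (bases, y axis) of the called peaks assigned to each family gene in the 4 groups, where points are libraries and bars are means of 2. Each panel has its own scale from 0. Il27 and Ebi3 are higher in all 4 LPS libraries than in all untreated ones, and at Il23a WT with LPS lies at 884 and 790 bases and KO with LPS at 444 and 443.

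By distance, 7 of the 32 regions overlapped a family gene, 4 lay within 5 kb, 10 from 5 to 25 kb and 11 from 25 to 100 kb. Called in all 8 libraries were 3, 1, 4 and 1 of these, and of all regions in the same distance classes 46.7%, 35.5%, 37.0% and 35.7% were. Over all distances this was 9 of 32, or 28.1%, against 41.3% of all regions. Called in a single library were 6 of 32, all of them in LPS libraries, against 20.1%. The regions gained in both genotypes were 1 overlapping a gene, 1 at 5 to 25 kb and 1 beyond 25 kb. The farthest regions inside the 100 kb limit were the one 80.8 kb from Il12b, with a peak of 176 bases in WT LPS library 2, and the one 79.8 kb from Il12a described above. The nearest outside it was 181 kb from Il12b, with a peak of 210 bases in KO LPS library 1.

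Within 25 kb of the 5 genes lay 12 regions assigned to other genes, Ublcp1 near Il12b, Cnpy2 and Pan2 near Il23a, Apobr, Cln3 and Eif3c near Il27 and Shd, Yju2 and Zfp119b near Ebi3. Of these, 10 were called in all 8 libraries. A region with a peak in every library cannot be scored as gained or lost, so the call rule could score only the few remaining ones. It gave 0 gains and 0 losses with LPS in WT or KO. With so few regions open to the rule, these counts cannot decide whether the neighbouring regions respond to LPS.

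The receptor genes (Il12rb1, Il12rb2, Il23r, Il27ra and Il6st), through which target cells sense these cytokines, had 25 regions. Of these, 0 were gained in WT or KO, 4 were lost in WT and 1 in KO, where the gained share of all regions was 3.96% in WT and 2.56% in KO and the lost share 5.06% and 4.07%. Jak1, a kinase that carries cytokine receptor signals, had 30 regions. Of these, 1 inside the gene (chromosome 4, 101244430 to 101245114) was lost in both genotypes, against 0.928% of all regions. Its peaks were 177 to 682 bases wide in untreated libraries. The related cytokine genes Il6, Lif and Cntf had 12 regions, with 2 gained and 1 lost in WT and 0 gained and 1 lost in KO.

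Genes of 12 transcription factors known to act on cytokine genes of this kind (Rel, Rela, Nfkb1, Irf1, Irf3, Irf5, Irf8, Spi1, Cebpb, Batf, Nfil3 and Atf3) had 130 regions, with 14 gained and 8 lost in WT and 7 gained and 4 lost in KO. The same shares of all regions apply. In both genotypes 5 were gained, against 1.10% of all regions, and 2 lost, against 0.928%. They lay inside Rel, an NF-kB subunit (chromosome 11, 23753014 to 23753514), at 2 places inside Nfkb1, another NF-kB subunit (chromosome 3, 135640063 to 135640802 and 135648252 to 135649242), at Irf3, an interferon regulatory factor (chromosome 7, 44998525 to 44998840), and 53.5 kb from Cebpb (chromosome 2, 167743969 to 167744328). At Irf8, an interferon regulatory factor of myeloid cells, 2 regions inside the gene were lost in both genotypes (chromosome 8, 120745362 to 120745608 and 120750700 to 120751055). Their peaks were 198 to 340 bases wide in untreated libraries.

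The family genes did not share one pattern over the 8 libraries. Pearson's r between their summed widths ran from -0.0895 (Il12b and Il23a) to 0.865 (Il27 and Ebi3), and r was 0.467 for Il12a and Il12b. These are descriptions over 8 libraries that share their treatment groups. Among 8844 genes with at least 3 regions, the sums most like those of Il12b were at Arl5a (r = 0.949), Dpp10 (0.929) and Gbp8 (0.921). For Il12a they were at Exoc3l4 (r = 0.986), Glud1 (0.945) and Gm2959 (0.941). For Il27 they were at Grap (r = 0.993), Smndc1 (0.985) and Lcp1 (0.960).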

How the data were processed

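The deposited unit was, for each of the 8 libraries, a list of peak positions on GRCm38 (mm10) made by the authors, with no count, score or p-value. The submitters' processing notes name MACS2 2.1.1, Picard, Bowtie2 2.3.0 and bcl2fastq 2.17.1.14. How duplicates, cut sites and the calling threshold were handled was not given in the sources used here. Those choices set which weak peaks enter a list and how wide a peak is. Positions are printed counting from 1.

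Peaks of 21 chromosomes were merged across libraries (overlap of at least 1 base) with Python 3.11.15, numpy 2.4.6 and pandas 2.3.3. A library called a region when it had a peak in it. Width is the number of bases its peaks cover, 0 without a peak. Each region went to its nearest protein-coding gene body in the RefSeq table (GRCm38.p6), and a region equally near to a family gene and another gene was given to the family gene. Widths per region and summed widths per gene were compared 4 libraries against 4 by an exact permutation test, two-sided, with 70 arrangements (smallest p 0.0286), with Benjamini-Hochberg adjustment over all 87260 regions or 16459 genes, and the code was tested on simulated data.

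Replicate numbers, and the codes in the sample titles, are shared by 1 untreated and 1 LPS library of a genotype. Deviations from the group means correlated within these pairs (r = 0.197 in WT and 0.147 in KO over 87260 regions), so they were also used as pairs, whose smallest exact p is 0.125. Per-library values are given for regions counted as different in any call comparison, those over either gene end and the widest of each gene. Those 9.30 kb and 76.4 kb from Il12b, 10.6 kb from Il12a and the single-library peaks were added after their values were seen. The alternatives were a coverage of 50%, a merging gap of 100 bases, equal list lengths, the widest peaks, a limit of 25 kb, tied regions left out, widths as a share of covered bases, pairs, and each library left out. The family, its gene lists and the tests were chosen with earlier results of these data known. The region inside Jak1 was named after its values were seen, and the counts of the list of signalling genes are not reported here.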

Additional observations from a re-analysis of the deposited data

Results flagged for a closer look

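At the region at the higher-coordinate end of Il23a (start 128298061), every WT library with LPS was wider than every untreated WT library and every KO library with LPS was narrower than every untreated KO library. LPS minus untreated was 396.5 bases in WT and -124 bases in KO. Seen across genotypes, KO minus WT was 127 bases untreated and -393.5 bases with LPS. The difference between the groups was not tested. None of the other 31 family regions or the summed widths of the 3 genes with several regions showed opposite shifts of this kind. Groups of 2 are too small to look for single outlying libraries.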

How the results depend on the processing

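Peak width stands in for signal, and depth is unknown. The 3 regions gained in both genotypes were 2 or 3 in each of 6 other settings and 3 or 4 when 1 library was left out; these are counts and may hold other regions. Within 25 kb, the WT gains were 3, WT losses 1, KO gains 2, KO-only regions 1 untreated and 1 with LPS, regions narrower with LPS 0 and wider in KO 1. Taking the widest 27013 peaks of each list gave 3 WT gains, 0 WT losses, 1 KO loss, 1 KO-only and 0 WT-only regions untreated, 1 KO-only region with LPS, 3 regions wider and 0 narrower with LPS, 0 wider in KO, 1 gene sum higher with LPS and 1 higher in KO. At equal list length (54027 peaks) KO-only untreated regions were 0 and regions wider in KO 1. With 50% of a region covered there were 1 KO loss, 1 WT-only region with LPS and 1 region wider in KO. Leaving out the tied Ebi3 region left 1 gene sum higher with LPS. Widths as a share of covered bases gave 0 regions narrower with LPS and 1 wider in KO. With the replicate block, 2 regions were narrower with LPS in all 4 pairs, 7 wider, and 3 gene sums higher. Pairs were run for these LPS counts and no others, and 0 gene sums were lower in all pairs. They were counted in the family alone, so no share of all regions or genes stands beside them. The cause of these moves was not tested. Fewer regions or peaks entered with the 25 kb limit, the widest peaks, equal list lengths and the tied region left out.

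Leaving out each library in turn gave 5 to 8 WT gains, 2 to 3 WT losses, 4 to 6 KO gains and 0 to 3 KO losses. Genotype counts were 2 to 4 KO-only and 1 to 3 WT-only untreated, 2 to 3 KO-only and 0 to 4 WT-only with LPS, and 0 to 1 KO-only over both treatments. Regions without overlap were 6 to 8 wider and 1 to 3 narrower with LPS and 2 to 3 wider in KO, and gene sums 2 to 3 higher with LPS and 0 to 1 higher in KO. KO losses reached 3 without KO untreated library 1, as did narrower regions. WT-only untreated regions were 3 without KO untreated library 2. Reversed values were the Il12b sum within 25 kb (-234.2 bases, -101.5 in WT and -367 in KO) and the Il12a sum in KO without untreated library 1 (-17.0) or LPS library 1 (-10.5), which reached 750 without untreated library 2.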
